A study of Mus musculus with 6 samples.

Results

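The granzyme, perforin and granule genes examined here were 10 genes taken by symbol from the deposited table of gene counts: Gzma, Gzmb, Gzmc, Gzmd, Gzme, Gzmf, Gzmk, Prf1, Nkg7 and Srgn. They were 10 of the 54532 genes listed, and 8 of them were among the 15938 genes with enough reads to be tested. Gzmd and Gzme had too few reads. The other granzyme genes of the mouse, Gzmg, Gzmm and Gzmn, are given beside them.

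RNA sequencing compared 3 Th1 cultures of mouse CD4+ T cells that received vehicle (0.1% DMSO) with 3 that received 500 nM ALX-5407, which blocks the glycine transporter GlyT1, the product of Slc6a9. The cells came from spleens of male C57BL/6 mice aged 6 to 8 weeks and were enriched by magnetic negative selection. No transgene or deletion is stated for them. Both groups were stimulated with plate-bound anti-CD3, anti-CD28, IL-2, IL-12 and an antibody to IL-4, and the labels give 72 h of culture for both. The series' design gives 72 h of exposure to ALX-5407 and the study's methods give 24 h, so the length of exposure is uncertain. The labels call the cultures biological replicates but do not say that they came from separate animals, so p-values measure the spread between these cultures, which may in part be technical.

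Cytotoxic lymphocytes store granzymes, a family of serine proteases, in secretory lysosomes together with perforin, which forms pores in the membrane of a target cell and lets granzymes enter its cytosol. Serglycin, the proteoglycan encoded by Srgn, holds the positively charged granzymes in the granule core, and NKG7 is a granule membrane protein involved in degranulation. These genes are best known from NK cells and CD8+ T cells, and CD4+ Th1 cells can also express some of them. Granzyme B cleaves after aspartate, whereas granzymes A and K cleave after basic residues.

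Depth was 30801753 to 36727788 counts per library, and the log2 profiles correlated at 0.988 to 0.991 within groups and 0.965 to 0.970 between them (Pearson r across genes, which are not independent replicates). Slc6a9, the gene of the drug target, was higher with ALX-5407 (6.18 ± 1.25 against 15.8 ± 1.14 CPM, SD, n = 3 each; log2 fold change 1.35, adjusted p = 1.49e-06). CPM are counts scaled to library size after TMM normalization. Cd4 averaged 646 ± 67.4 CPM in the Th1 and 470 ± 10.8 CPM in the ALX-5407 cultures (SD, n = 3 each), and the summed level of 8 CD4 T cell markers was 2942 to 3160 against 3058 to 3088 CPM. That sum held calls in both directions: Cd4 (log2 fold change -0.46, adjusted p = 0.000174), Cd3d (-0.39) and Cd3g (-0.35) were lower, and Cd28 (0.52) and Thy1 (0.27) were higher, the last not without ALX-5407 replicate 1 (adjusted p = 0.0641). Markers of other cells that could carry granzymes were low beside the CD4 markers. The 2 CD8 markers summed to 9.25 to 9.59 CPM in Th1 cells and 6.71 to 8.87 CPM with ALX-5407. The 10 NK cell markers summed to 12.1 to 15.01 and 6.94 to 11.55 CPM. Both sums exceeded the mean levels of Gzma (7.23 and 5.22 CPM) and Gzmc (5.13 and 1.90 CPM) in the same groups. Klr genes counted in the surface receptor list below included Klrc1 at 42.0, Klrk1 at 35.8 and Klrd1 at 11.5 CPM in Th1 cells. Klrc2 was at 4.61 and Klrg1 at 1.24 CPM, and only Klrg1 of these was called, as lower (-1.21, adjusted p = 0.0174). Of the CD8 and NK markers, Klre1 was lower with ALX-5407 (log2 fold change -1.46, adjusted p = 3.65e-05) and Cd8b1 was not called (-0.0070, adjusted p = 0.976). Cd8a (-0.80, adjusted p = 0.0111) and Klra3 (-0.89, adjusted p = 0.0306) were also lower, but Cd8a lost its call without ALX-5407 replicate 1 (adjusted p = 0.0556) and Klra3 without Th1 replicate 2 or 3 or ALX-5407 replicate 1 or 2 (adjusted p = 0.0514 to 0.126). The defining NK genes Ncr1 and Klrb1c had too few reads to be tested. Mast cell and basophil markers summed to 4.62 to 7.34 CPM in Th1 cells and 5.65 to 6.65 CPM with ALX-5407, with Mcpt4 at 0 in every library, and gamma delta T cell markers summed to 12.5 to 15.5 and 12.7 to 15.5 CPM. The part of the CD8 and NK markers in the results below was not tested. In bulk cultures, fewer cells expressing a gene and less RNA per cell cannot be told apart.

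The promoters of the 4 granule genes with the clearest differences between the groups are shown because Gzmb and Prf1 were higher and Gzmc and Nkg7 were lower with ALX-5407. Each is 300 bases from RefSeq on GRCm38.p6, written 5′ to 3′ on the strand of the gene, from 250 bases before to 50 bases after the first RefSeq start. Capitals mark matches on either strand to 4 motifs: TCACAC (T-box), TGTGGT (RUNX), TGANTCA (AP-1) and TTCNNNGAA (STAT).
Gzmb: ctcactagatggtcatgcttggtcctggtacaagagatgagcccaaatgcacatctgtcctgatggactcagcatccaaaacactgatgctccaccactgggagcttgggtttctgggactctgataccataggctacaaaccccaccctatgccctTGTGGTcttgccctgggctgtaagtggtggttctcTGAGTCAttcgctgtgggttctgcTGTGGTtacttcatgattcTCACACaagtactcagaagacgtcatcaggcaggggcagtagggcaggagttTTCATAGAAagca
Prf1: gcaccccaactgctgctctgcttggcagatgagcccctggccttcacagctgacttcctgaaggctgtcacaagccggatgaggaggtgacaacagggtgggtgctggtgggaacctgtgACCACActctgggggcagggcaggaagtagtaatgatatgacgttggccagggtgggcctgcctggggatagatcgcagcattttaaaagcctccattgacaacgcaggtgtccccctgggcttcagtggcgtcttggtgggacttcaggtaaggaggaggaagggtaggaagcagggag
Gzmc: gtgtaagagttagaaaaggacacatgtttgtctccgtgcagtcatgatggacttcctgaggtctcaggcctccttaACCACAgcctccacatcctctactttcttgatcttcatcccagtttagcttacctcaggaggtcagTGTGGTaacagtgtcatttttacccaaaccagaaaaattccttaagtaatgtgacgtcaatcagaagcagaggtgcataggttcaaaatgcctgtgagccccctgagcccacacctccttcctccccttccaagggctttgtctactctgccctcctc
Nkg7: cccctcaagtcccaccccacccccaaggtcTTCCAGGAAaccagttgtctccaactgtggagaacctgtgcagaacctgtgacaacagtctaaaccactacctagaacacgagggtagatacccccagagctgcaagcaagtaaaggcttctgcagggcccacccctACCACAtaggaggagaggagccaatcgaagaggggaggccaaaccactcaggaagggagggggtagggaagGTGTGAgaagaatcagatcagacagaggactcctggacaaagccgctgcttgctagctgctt
In the Gzmb window, at chr14:56262285-56262584 on the − strand, 2 RUNX matches, 1 AP-1 match, 1 T-box match and 1 STAT match were found. The Prf1 window, at chr10:61297586-61297885 on the + strand, held 1 RUNX match. The Gzmc window, at chr14:56234608-56234907 on the − strand, held 2 RUNX matches, and the Nkg7 window, at chr7:43436888-43437187 on the + strand, held 1 match each to the T-box, RUNX and STAT motifs. None of these matches overlapped another. The T-box motif occurred in 14.5% of 32851 RefSeq promoters of the same length, RUNX in 16.8%, AP-1 in 7.81% and STAT in 8.30%.

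All 13 granzyme, perforin and granule genes had a RefSeq promoter, and 10 of them held at least 1 RUNX match at the first start. A second RefSeq start of Srgn, which had no match at its first, had 1 RUNX match. On chromosome 14, 6 of the 7 granzyme promoters (all but that of Gzmn) held 2 RUNX matches, which 1.81% of all promoters do. These pairs lay 62 bases apart in Gzmd, Gzme, Gzmf and Gzmg, 66 bases apart in Gzmc and 59 bases apart in Gzmb. The promoters of Gzmd and Gzme were 93.4% identical, and those of Gzmb and Gzmc 46.2%, so the matches of the close copies are not independent of each other. Both Gzmb and Gzmc, which differed in opposite directions between the groups, had 2 RUNX matches, but in different arrangements. In Gzmb both read TGTGGT, at -93 and -34, whereas in Gzmc they read ACCACA at -174 and TGTGGT at -108. Gzmd, Gzme, Gzmf and Gzmg had the same order of ACCACA and TGTGGT as Gzmc. A match is a match of letters and says nothing on binding.

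**Figure D1:**
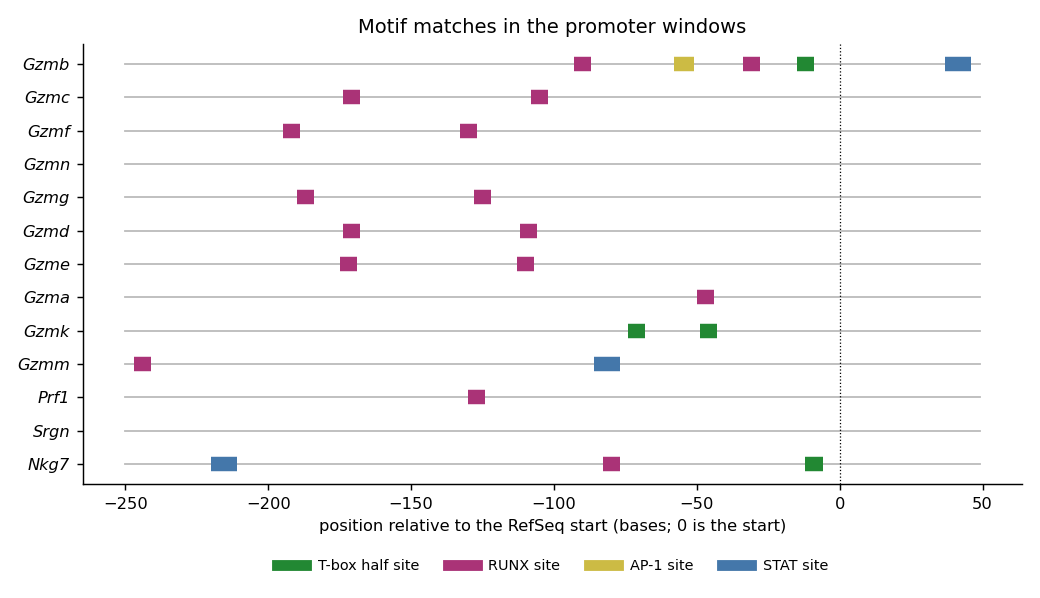
Positions of motif matches (coloured boxes) in the promoter windows of 13 granule genes, in bases relative to the RefSeq start at 0. The 6 chromosome 14 granzyme promoters other than that of Gzmn carry a pair of RUNX matches, and the Gzmn window and the window at the first Srgn start carry no match to the 4 motifs.

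Of the 8 granule genes tested, 2 were higher with ALX-5407 (Gzmb and Prf1), 3 were lower (Gzmc, Gzma and Nkg7) and 3 were not called (Srgn, Gzmk and Gzmf) at an adjusted p under 0.05. Across all genes tested, 47.7% were called, 24.5% as higher and 23.2% as lower. Only Gzmc, lower, also passed a log2 fold change of 1 in size, and none was higher past it. Of all genes tested, 6.68% were lower and 3.36% were higher past it. The values of the 2 groups did not overlap for 5 of the 8 genes, and for 55.5% of all genes tested. The median log2 fold change was -0.33 over the 8 genes and 0.0053 over all genes tested. Whether the shares differ from those of all genes was not tested, and with 8 genes they say little about the group as a whole. The genes are therefore taken one by one, and they differed in direction among themselves.

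**Figure D2:**
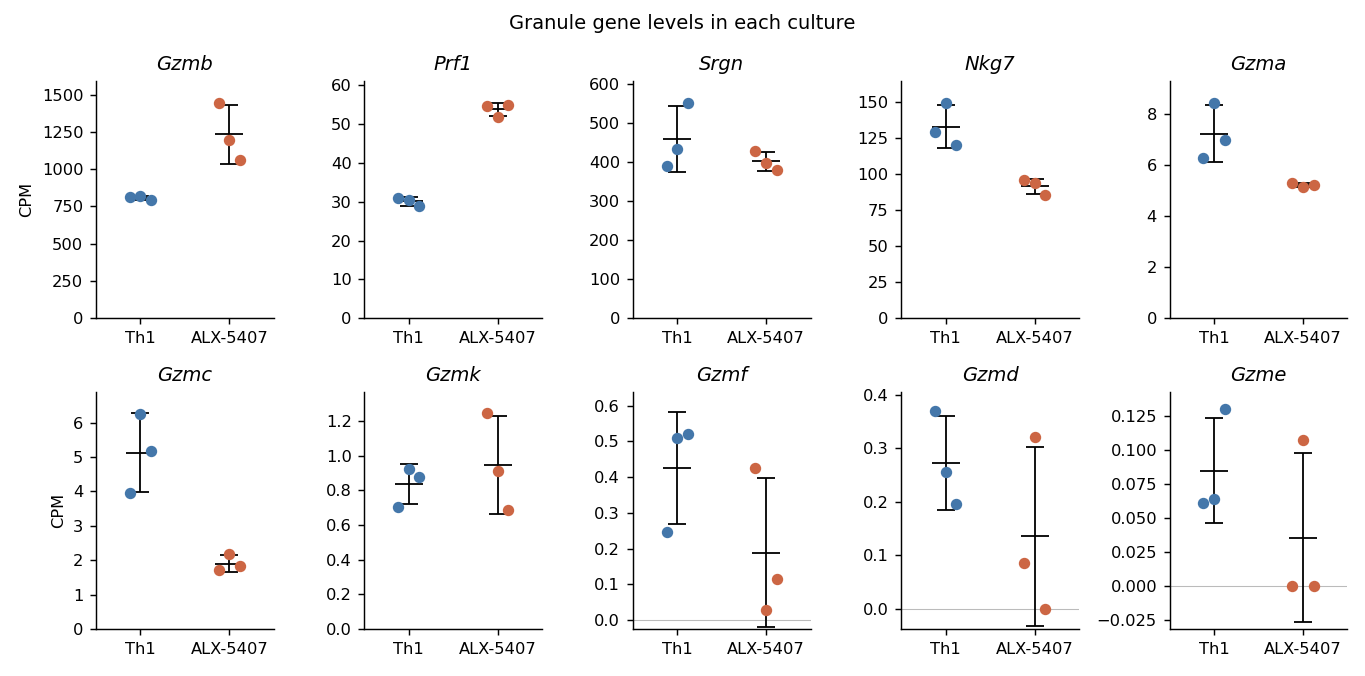
Level of each of the 10 granule genes in CPM (y axes, a separate scale for each gene) in the 3 Th1 and the 3 ALX-5407 cultures. Points are cultures, the long bars are means and the error bars are 1 SD, which runs below 0 for Gzmf, Gzmd and Gzme. Gzmb and Prf1 lie higher with ALX-5407 and Gzmc, Gzma and Nkg7 lower, with no overlap.

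Granzyme B was by far the most abundant granzyme transcript. Gzmb (ENSMUSG00000015437) lies on the − strand of chromosome 14 at 56258838 to 56262260 in GRCm38, with 5 exons and 1436 exon bases. In Th1 cells, 26479, 25722 and 24428 reads were counted on it, or 813, 820 and 794 CPM, and with ALX-5407 51080, 44582 and 37103 reads, or 1446, 1195 and 1058 CPM. All 3 ALX-5407 cultures lay above all 3 Th1 cultures, and they varied more among themselves (SD 197 against 13.8 CPM). The mean rose from 809 ± 13.8 to 1233 ± 197 CPM (SD, n = 3 each), which is 1.52-fold (log2 fold change 0.61, standard error 0.0934, adjusted p = 5.50e-05; all adjusted p-values are Benjamini-Hochberg values of the edgeR quasi-likelihood test). The 95% interval of the log2 fold change was 0.41 to 0.81. Gzmb ranked 92 among the genes tested by mean count. With ALX-5407 replicate 1, the highest library, left out, the log2 fold change was at its lowest over the 16 alternative settings, at 0.48, and the gene kept its call in all of them.

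Perforin moved the same way. Prf1 (ENSMUSG00000037202, chromosome 10, 61297833 to 61304680, + strand), which encodes the pore-forming protein, had 1011, 954 and 887 reads in Th1 cells and 1927, 1932 and 1928 reads with ALX-5407. This corresponds to 31.05, 30.4 and 28.8 CPM against 54.6, 51.8 and 55.0 CPM. The groups were far apart and the cultures of each lay close together. The mean rose 1.79-fold, from 30.1 ± 1.15 to 53.8 ± 1.74 CPM (SD, n = 3 each; log2 fold change 0.84, standard error 0.0782, adjusted p = 3.17e-07, 95% interval 0.67 to 1.00). The ratio of Gzmb to Prf1 was 26.2, 27.0 and 27.5 in Th1 cells and 26.5, 23.1 and 19.2 with ALX-5407, so that its values overlapped between the groups.

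Granzyme C went the other way. Gzmc (ENSMUSG00000079186, chromosome 14, 56231441 to 56234656, − strand) is the granzyme gene nearest to Gzmb in the cluster, and its product is one of the less studied granzymes of the mouse. It had 129, 196 and 159 reads in Th1 cells, or 3.96, 6.25 and 5.17 CPM, and 60, 81 and 64 reads, or 1.70, 2.17 and 1.83 CPM, with ALX-5407. Every ALX-5407 culture lay below every Th1 culture. The mean fell from 5.13 ± 1.15 to 1.90 ± 0.244 CPM (SD, n = 3 each; log2 fold change -1.43, standard error 0.215, adjusted p = 4.43e-05, 95% interval -1.88 to -0.97), and it was the only one of the 8 genes to pass the log2 fold change of 1. Per base, Gzmc was at 5.73 CPM per kb in Th1 cells and Gzmb at 563 CPM per kb.

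Granzyme A is the tryptase-like granzyme best known from NK cells and CD8+ T cells. Gzma (ENSMUSG00000023132, chromosome 13, 113093825 to 113100981, − strand) had 204, 265 and 215 reads in Th1 cells and 187, 192 and 183 with ALX-5407. Its level was 6.26, 8.45 and 6.99 CPM against 5.30, 5.15 and 5.22 CPM, again without overlap. The mean fell from 7.23 ± 1.11 to 5.22 ± 0.0744 CPM (SD, n = 3 each; log2 fold change -0.47, standard error 0.154, adjusted p = 0.0189). This call was the least secure of the 5. It was lost without Th1 replicate 2, the highest Th1 library (log2 fold change -0.36, adjusted p = 0.107), without ALX-5407 replicate 2 (-0.45, adjusted p = 0.0524) and in a test against a change of 1.2-fold (adjusted p = 0.100).

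The remaining granzymes were at the limit of detection. Gzmk, which encodes another tryptase-like granzyme and lies near Gzma on chromosome 13 (113171608 to 113225908), had 23, 29 and 27 reads in Th1 cells and 44, 34 and 24 with ALX-5407, and the groups overlapped. Its level was 0.836 ± 0.115 against 0.947 ± 0.282 CPM (SD, n = 3 each; log2 fold change 0.18, adjusted p = 0.721, 95% interval -0.60 to 0.96), and the sign turned without ALX-5407 replicate 1 (log2 fold change -0.06). Gzmf (chromosome 14, 56205263 to 56211417) had 8, 16 and 16 reads in Th1 cells and 15, 1 and 4 with ALX-5407 (log2 fold change -1.17, standard error 0.696, adjusted p = 0.184, 95% interval -2.64 to 0.31). Its groups overlapped through ALX-5407 replicate 1, and without that library it was called lower (log2 fold change -2.54, adjusted p = 0.0227).

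Gzmd (chromosome 14, 56129556 to 56132608) and Gzme (chromosome 14, 56117626 to 56120625) were not tested. Gzmd had 12, 8 and 6 reads in Th1 cells and 3, 12 and 0 with ALX-5407, and Gzme had 2, 2 and 4 against 0, 4 and 0 reads, and both sets of values overlapped. Of the other granzyme genes, Gzmg had 6, 14 and 8 reads against 6, 0 and 0 and Gzmn 0, 4 and 0 against 2, 0 and 0. Gzmm, on chromosome 10 and the only one of the 3 tested, had 8, 10 and 9 reads in Th1 cells and 17, 22 and 14 with ALX-5407. Its groups did not overlap, but it did not pass the test (log2 fold change 0.77, standard error 0.482, adjusted p = 0.203, 95% interval -0.25 to 1.80). With all libraries, no difference was called in these low genes.

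The 7 granzyme genes on chromosome 14 lie on the − strand within 144.6 kb, with Gzmb at one end and Gzme at the other. Gzmd and Gzme share 93.3% of their coding bases, and of the 50-base windows of their transcripts 21.9% and 20.6% also occur in another gene, so their counts depend on how reads with several matches were treated, which is not given in the sources used here. The share was 19.4% for Gzmf, 19.8% for Gzmg, 6.06% for Gzmn, 4.14% for Gzmc and 0% for Gzmb, Gzma, Gzmk, Gzmm, Prf1, Nkg7 and Srgn. The antisense gene Gm4022 covers 16.4% of the exon bases of Gzmf and had 0, 0 and 0 reads in Th1 cells and 0, 0 and 3 with ALX-5407. Summed, which removes any exchange of reads among them, Gzmc, Gzmd, Gzme, Gzmf, Gzmg and Gzmn had 157, 240 and 193 reads in Th1 cells and 86, 98 and 68 with ALX-5407. The sum fell from 6.25 ± 1.42 to 2.33 ± 0.355 CPM (SD, n = 3 each; log2 fold change -1.42, standard error 0.206, adjusted p = 3.19e-05).

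Gzmc held most of that sum. Without it, in an alternative chosen after seeing the data, the other 5 genes had 28, 44 and 34 reads in Th1 cells and 26, 17 and 4 with ALX-5407 (1.12 ± 0.272 against 0.435 ± 0.312 CPM, SD, n = 3 each; log2 fold change -1.36, standard error 0.495, adjusted p = 0.0325). No value overlapped, but the call did not hold with single libraries left out: it was lost without Th1 replicate 1, 2 or 3 and without ALX-5407 replicate 2 or 3. The 8 mast cell and neutrophil protease genes that lie near this cluster on chromosome 14 all had too few reads to be tested.

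**Figure D3:**
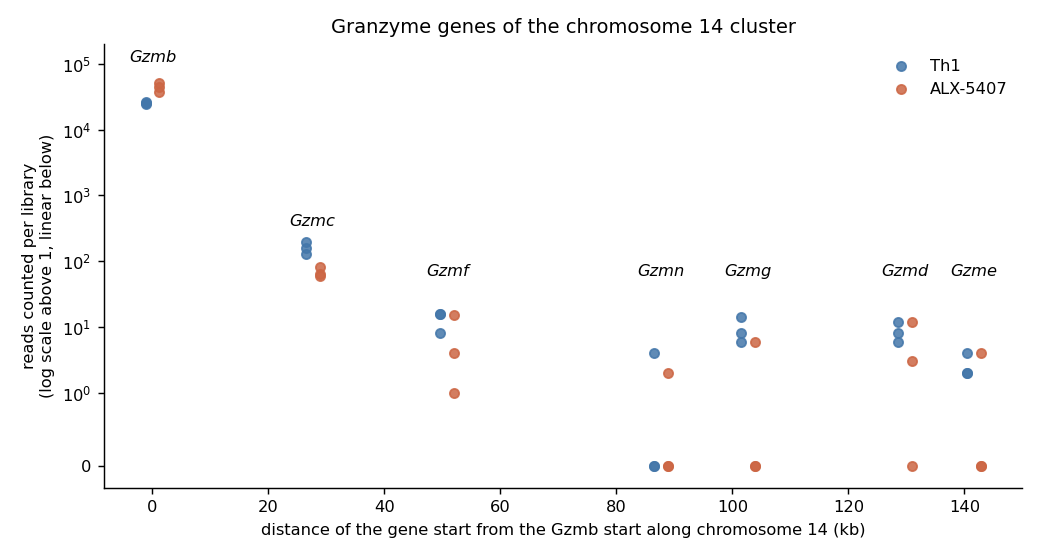
Reads counted per library (y axis, log scale above 1 and linear below) for the 7 granzyme genes of chromosome 14, placed by distance in kb from the Gzmb start (x axis). Gzmb holds 24428 reads or more in every library, Gzmc 60 to 196, and the other 5 genes at most 16, with Gzmb higher and Gzmc lower with ALX-5407.

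The share of Gzmb among all granzyme transcripts is not a separate result from its level, because Gzmb held nearly all of the total. Corrected for transcript length, Gzmb made up 97.9%, 97.0% and 97.4% of granzyme transcripts in Th1 cells and 99.1%, 98.9% and 98.9% with ALX-5407. All 3 ALX-5407 shares were above the Th1 values (97.4% ± 0.451 against 99.0% ± 0.105, SD, n = 3 each; two-sided exact permutation test p = 0.1, the smallest that 3 against 3 cultures allow). The share of Gzma was 1.24% in Th1 cells and 0.607% with ALX-5407, that of Gzmc 0.990% and 0.250%, and that of Gzmk 0.104% and 0.0775%. The sum of all granzyme counts followed Gzmb and rose from 824 ± 14.8 to 1242 ± 197 CPM (SD, n = 3 each; log2 fold change 0.59, standard error 0.0932, adjusted p = 6.89e-05). It was 26871, 26266 and 24872 reads against 51414, 44928 and 37392 reads.

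Nkg7 and Srgn, which encode granule proteins other than the proteases and perforin, were not called higher with ALX-5407. Nkg7 (ENSMUSG00000004612, chromosome 7, 43437073 to 43438249, + strand) had 4211, 4686 and 3685 reads in Th1 cells and 3374, 3488 and 2998 with ALX-5407, or 129, 149 and 120 CPM against 95.5, 93.5 and 85.5 CPM. Each ALX-5407 value was below each Th1 value. The mean fell from 133 ± 15.2 to 91.5 ± 5.30 CPM (SD, n = 3 each; log2 fold change -0.54, standard error 0.0849, adjusted p = 7.13e-05). It kept its call in all 16 alternative settings, with log2 fold changes from -0.62 to -0.46.

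Srgn (ENSMUSG00000020077, chromosome 10, 62493833 to 62527451, − strand), which encodes serglycin, had 12710, 13585 and 16969 reads in Th1 cells and 15066, 14785 and 13311 with ALX-5407. Its level was 390, 433 and 551 CPM in Th1 cells and 427, 396 and 380 CPM with ALX-5407, so the groups overlapped, and Th1 replicate 3 was the highest. The means were 458 ± 83.4 and 401 ± 23.8 CPM (SD, n = 3 each; log2 fold change -0.19, standard error 0.102, adjusted p = 0.133, 95% interval -0.41 to 0.02). A call depended on single Th1 libraries: without Th1 replicate 1 it was called lower (-0.30, adjusted p = 0.0261), and without Th1 replicate 3 the log2 fold change was -0.05 (adjusted p = 0.558). The ratio of Gzmb to Srgn in CPM was 2.08, 1.89 and 1.44 in Th1 cells and 3.39, 3.02 and 2.79 with ALX-5407, without overlap.

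On the scale of the log2 ratio to Gzmb, Gzmc differed by -2.01, Nkg7 by -1.13, Gzma by -1.06, Srgn by -0.78, Gzmf by -2.48 and Gzmk by -0.45 between ALX-5407 and Th1 cells, and their groups did not overlap. The exact permutation p was 0.1 for each of these, or 0.133 after Benjamini-Hochberg adjustment over the 8 relations, and 0.1 is the smallest possible value. The ratio of Prf1 to Gzmb differed by 0.24 (exact p = 0.2) and that of Gzmm to Gzmb by 0.17 (exact p = 0.5). Every ratio holds Gzmb, so the rise of Gzmb is part of each difference. In CPM, the groups of Gzmf, Gzmk and Srgn overlapped. On the ratio scale, Gzmf (-11.69 in Th1 replicate 1, -11.73 in ALX-5407 replicate 1) and Gzmk (-10.17 and -10.18 in the same libraries) were barely apart. The share of all genes without overlap on this scale was not computed.

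**Figure D4:**
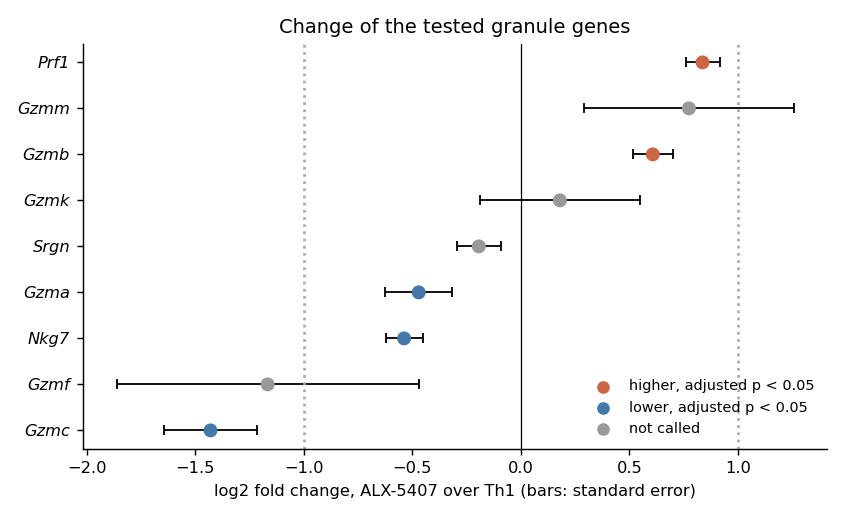
Log2 fold change of ALX-5407 over Th1 for the 8 granule genes tested and Gzmm, with bars of 1 standard error. Dotted lines mark log2 fold changes of -1 and 1, and of the 5 called genes only Gzmc lies beyond them.

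Compared per length, the order of levels in Th1 cells was Gzmb at 563 CPM per kb, Srgn at 209, Nkg7 at 145, Prf1 at 11.65, Gzma at 7.19 and Gzmc at 5.73, and then Gzmk at 0.602 and Gzmf at 0.463 CPM per kb. With ALX-5407 it was Gzmb at 859, Srgn at 183, Nkg7 at 100, Prf1 at 20.8, Gzma at 5.19, Gzmc at 2.12, Gzmk at 0.682 and Gzmf at 0.205 CPM per kb. The order of these 8 genes was the same in both groups. In Th1 cells, the values of Gzma and Gzmc and those of Gzmk and Gzmf overlapped between the neighbours, whereas Gzmb, Srgn, Nkg7 and Prf1 stood apart from each other. This comparison takes the exon length of the gene and not the isoforms used.

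The other genes of the granule pathway were followed in 7 further lists of named genes, with 162 genes tested. Across them 57 were higher with ALX-5407 (35.2%), 48 were lower (29.6%) and 57 were not called, with a median log2 fold change of 0.0065. Over all genes tested, 24.5% were higher and 23.2% lower, with a median of 0.0053, and whether the shares of any list differ from these was not tested. Among 19 genes that process and package granule proteins, 8 were higher (42.1%) and 2 lower, with a median of 0.17. Ctsw, a cathepsin of cytotoxic lymphocytes (138 ± 6.57 to 57.6 ± 2.76 CPM; log2 fold change -1.27, adjusted p = 2.27e-09), and Cst7, the cathepsin inhibitor cystatin F (-0.61, adjusted p = 1.05e-05), fell. Chpf (0.82, adjusted p = 4.29e-06) and Chsy1 (0.47, adjusted p = 5.99e-05), which build chondroitin chains, Xylt1, which starts the chains of proteoglycans (0.62, adjusted p = 0.000874), and Igf2r, a sorting receptor for lysosomal enzymes (0.40, adjusted p = 0.000238), rose. Of other genes for such chains in the list, Csgalnact1 (1.88, adjusted p = 0.00121, at 10 to 11 reads per library in Th1 cells) and Csgalnact2 (0.28, adjusted p = 0.0340) also rose. Chst11, Chst12, Xylt2 and Ndst2 were not called (log2 fold change -0.06 to 0.21). Ctsc, the dipeptidyl peptidase that activates pro-granzymes, was not called (0.17, adjusted p = 0.119).

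Among 37 genes of granule biogenesis and exocytosis, 14 were lower (37.8%) and 6 higher (16.2%), with a median of -0.06. The SNARE genes Vamp2 (79.4 ± 17.2 to 35.5 ± 4.70 CPM; log2 fold change -1.16, adjusted p = 2.55e-06), Stx4a (-0.65, adjusted p = 5.48e-06) and Vamp8 (-0.68, adjusted p = 1.30e-05) fell, as did Cd63, a lysosomal tetraspanin (-1.25, adjusted p = 9.46e-06). Rab27a (0.30, adjusted p = 0.00213), the GTPase that docks granules, and Sytl2 (0.54, adjusted p = 0.000705), which binds it, rose. Coro1a, an actin regulator (0.27, adjusted p = 0.00597), and Kif5b, a kinesin heavy chain (0.25, adjusted p = 0.0086), rose as well.

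All 8 tested serpins of the 14 listed as granzyme inhibitors or relatives were called, 6 lower and 2 higher (median -1.27), where 47.7% of all genes tested were called. Serpinb9, the intracellular inhibitor of granzyme B, fell from 76.6 ± 8.59 to 29.0 ± 0.569 CPM (log2 fold change -1.40, adjusted p = 5.00e-09). Serpinb6b fell from 261 ± 24.6 to 63.5 ± 2.66 CPM (-2.04, adjusted p = 4.64e-11), and Serpinb6a (-0.93, adjusted p = 1.36e-07) and Serpinb1a (-1.22, adjusted p = 4.26e-06), which inhibits neutrophil proteases, fell too. The others that fell were Serpinb9b (-2.96, adjusted p = 7.26e-06, at 6 to 16 reads per library with ALX-5407) and Serpinc1 (-1.32, adjusted p = 0.000252). The 2 that rose were Serpina3g (1.46, adjusted p = 4.12e-07), which is known to inhibit cysteine proteases, and Serpina3f (1.94, adjusted p = 4.02e-06).

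Of 35 transcriptional regulators linked to cytotoxic genes, 19 were higher (54.3%) and 9 lower (25.7%), with a median of 0.31. Prdm1, the gene of Blimp-1, rose from 19.0 ± 0.967 to 89.7 ± 8.01 CPM (log2 fold change 2.24, adjusted p = 4.47e-11), and Notch1 (0.89, adjusted p = 1.23e-07), Notch2 (0.82, adjusted p = 2.55e-07) and Zbtb7b, a CD4 lineage factor (0.71, adjusted p = 1.30e-06), rose. Stat4, which relays the IL-12 signal, fell from 63.9 ± 7.94 to 28.6 ± 0.355 CPM (-1.16, adjusted p = 5.55e-08). Hopx (-0.92, adjusted p = 5.39e-07), Zfp683, the gene of Hobit (-1.96, adjusted p = 2.45e-05), and Zeb2 (-0.59, adjusted p = 4.08e-05) fell.

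Of 21 cytokines and receptors tested, 10 were higher (47.6%) and 7 lower (33.3%), with a median of 0.05. Il12rb1, a subunit of the IL-12 receptor, rose (131 ± 10.4 to 244 ± 5.35 CPM; log2 fold change 0.89, adjusted p = 1.04e-07), and Tgfbr2 (0.70), Tgfbr1 (0.79) and Il6st (0.51) rose with adjusted p from 1.17e-06 to 3.62e-05. Ifng, the signature cytokine of Th1 cells, fell from 660 ± 106 to 383 ± 18.1 CPM (-0.79, adjusted p = 5.75e-06), while Il18r1 (-0.76), Ifngr1 (-0.55) and Ifngr2 (-0.73) fell with adjusted p from 1.20e-06 to 3.77e-05.

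Among 22 death ligands and surface receptors of cytotoxic cells, 8 were lower (36.4%) and 3 higher (13.6%), with a median of -0.20. Fasl, the ligand of the death receptor Fas, fell from 18.8 ± 3.12 to 6.38 ± 0.419 CPM (log2 fold change -1.56, adjusted p = 1.42e-07), and the adhesion receptors Crtam (-1.50, adjusted p = 6.42e-08), Cd226 (-0.82, adjusted p = 2.50e-05) and Cd96 (-0.90, adjusted p = 0.000193) fell. Tnf (0.61, adjusted p = 7.04e-05), Lta (0.32, adjusted p = 0.00838) and Ccl4 (0.47, adjusted p = 0.00293) rose. Of 20 genes listed as encoding granzyme substrates or their death pathway, 9 were higher and 2 lower (median 0.17), or 55% called. The initiator caspase gene Casp8 (121 ± 4.62 to 167 ± 7.51 CPM; log2 fold change 0.46, adjusted p = 4.97e-05) and the lamin gene Lmnb1 (0.48, adjusted p = 2.70e-05) rose, and Ndufs3 (-0.30, adjusted p = 0.00317) fell. Rock2 was called lower (-0.22, adjusted p = 0.0194) but lost its call without Th1 replicate 2 (adjusted p = 0.0692), ALX-5407 replicate 1 (adjusted p = 0.0599) or ALX-5407 replicate 2 (adjusted p = 0.139).

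**Figure D5:**
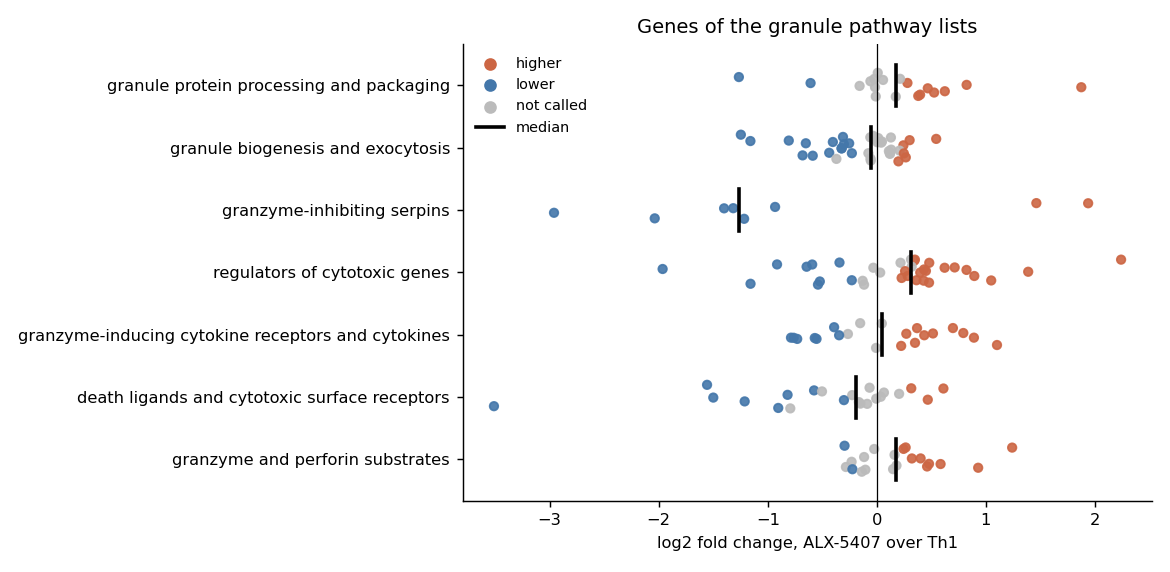
Log2 fold change of ALX-5407 over Th1 (x axis) for each tested gene of the 7 pathway lists (rows), with the list median as a black bar. The serpin list has the lowest median, at -1.27, and its 2 genes above 0 are Serpina3f and Serpina3g.

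Markers of the remaining cell types moved as follows. B cell markers summed to 61.1 to 67.7 CPM in Th1 cells and 73.4 to 76.5 CPM with ALX-5407. Ighm made up most of that sum (55.3 ± 3.03 to 62.7 ± 1.92 CPM) and was not called (adjusted p = 0.0581). Ms4a1 (log2 fold change 1.27, adjusted p = 0.00528), Pax5 (0.90, adjusted p = 0.00392) and Cd79a (0.67, adjusted p = 0.0460) were called higher. The call of Cd79a was lost with DESeq2 size factors, with DESeq2 and with a replicate block (adjusted p = 0.0504 to 0.0574). It was also lost without Th1 replicate 1, 2 or 3 and without ALX-5407 replicate 1 or 2 (adjusted p = 0.0645 to 0.214). Macrophage and dendritic cell markers summed to 15.99 to 21.9 and 5.83 to 6.87 CPM, which Cd68 dominated (18.3 ± 3.16 to 5.44 ± 0.345 CPM), and neutrophil markers to 69.9 to 75.4 and 24.1 to 31.6 CPM. The neutrophil sum was mostly Ly6g (72.1 ± 2.81 to 27.0 ± 4.04 CPM; log2 fold change -1.42), and S100a8, S100a9, Elane and Retnlg were at 0 in every library. Erythroid and platelet markers summed to 0.522 to 1.21 CPM and 1.48 to 2.98 CPM, and Pf4 was called higher (log2 fold change 1.69, adjusted p = 0.00547). The part of all these markers in the results was not tested.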

How the data were processed

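RNA sequencing of 3 Th1 and 3 ALX-5407 cultures was analysed. The authors deposited raw counts, whole numbers of reads per gene for 54532 genes, with no normalization and without pooling. Per the submitters' processing notes the tools were fastp, HISAT2 2.0.5 and featureCounts 1.5.0-p3, and the build was mm10 (GRCm38). Whether strand was used and how reads with several matches were counted are not given in the sources used here. The labels describe poly-T capture and the methods describe ribosomal RNA depletion, so the library type is uncertain. Of counts from 1 to 9, 55.6% to 58.7% were even, against 49.3% to 50.0% of counts of 200 or more. The cause was not tested, and low counts are therefore uncertain.

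edgeR 4.0.16 in R 4.3.3 was used with filterByExpr (minimum count 10, minimum total 15), TMM factors (0.965 to 1.03) and the quasi-likelihood test. P-values of the 15938 genes were adjusted by Benjamini-Hochberg. A gene was called at an adjusted p under 0.05. Standard errors came from the fold change and its F statistic. Exact permutation tests were two-sided. The procedure was tested on simulated data. Alternatives were other normalizations, DESeq2 1.42.0, limma-voom (limma 3.58.1), other filters, protein-coding genes only, a 1.2-fold threshold, a replicate block and each library left out. Libraries of a group differed beyond counting noise (chi-square per degree of freedom 5.58 to 22.3), and each was counted as 1 sample.

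The granule genes and the lists were chosen with earlier results of these data known. Named were all granule genes, up to 4 called genes in each direction per list by p, Slc6a9, and the 3 genes whose log2 CPM correlated best with Gzmb and with Prf1. Ctsc, Csgalnact1, Csgalnact2, Chst11, Chst12, Xylt2, Ndst2, Cd8b1, Ighm and the markers at 0 or too low to be tested were named after their values were seen. So were Klrc1, Klrc2, Klrd1, Klrg1, Klrk1, Serpinb9b and Serpinc1. The results for 2 genes that this rule names are not reported here. RefSeq gave the promoters. GENCODE transcripts gave exons and shared windows. No per-sample column was left unused. Figures were drawn with matplotlib 3.10.9 in Python 3.11.15.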

Additional observations from a re-analysis of the deposited data

How the results depend on the processing

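The calls of Gzmb, Prf1, Gzmc and Nkg7 kept their direction and their side of the threshold in all 16 alternative settings, with log2 fold changes of 0.48 to 0.71, 0.78 to 0.90, -1.59 to -1.27 and -0.62 to -0.46. With single libraries left out, 2 granule genes were higher in every fit, 2 to 4 were lower, and 1 to 2 were lower past a log2 fold change of 1, the second being Gzmf without ALX-5407 replicate 1. Gzmk ranged from -0.0581, without ALX-5407 replicate 1, to 0.371 with single libraries left out. The sum of Gzmd, Gzme, Gzmf, Gzmg and Gzmn ranged from -1.94 to -0.906. Over all genes, the test against a 1.2-fold change called 2235 higher and 2320 lower against 3910 and 3695, and among protein-coding genes alone 603 were lower past a log2 fold change of 1 against 1064. The median log2 fold change of all genes moved between -0.0477 and 0.064 with the setting. Another 64 named genes were examined only with DESeq2 size factors, with DESeq2, with a replicate block and with each library left out. Of these genes, 6 (Cd79a, Cd8a, Klra3, Rock2, Thy1 and Trdc) lost their call at least once and 0 changed sign. The 1.2-fold test and the other settings were not examined for them.

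The profiles showed no sign that the replicate numbers pair the cultures. Deviations of libraries with the same number correlated at -0.0084, 0.0036 and 0.063, and 2 of the 6 libraries correlated best with one of their own number. With so few cultures this cannot exclude pairing, which the labels do not state. With a replicate block, 2 granule genes were higher and 3 lower, as without it, and the log2 fold change of Gzmb was 0.60 (adjusted p = 2.91e-06). With the block, 4071 genes were higher and 3833 lower, and the sum without Gzmc was at -1.49 (adjusted p = 0.0211). Cd79a alone among the named genes lost its call under the block (0.65, adjusted p = 0.0504).

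With 3 cultures a group, an exact permutation test cannot give a p under 0.1. Counts under about 50 reads carry wide errors, which covers Gzmd, Gzme, Gzmf, Gzmg, Gzmk, Gzmm and Gzmn.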

Other observations

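Among genes with a mean of 50 counts or more, the log2 CPM of Gzmb over the 6 libraries correlated best with Mex3b (Pearson r = 0.992), Zfp113 (0.990) and Thap7 (0.990), and that of Prf1 with the pseudogene Rpl35a-ps2 (1.00), Wdr62 (0.9995) and Rcc1 (0.9994). The 6 libraries form 2 groups of 3 that differ in each of these genes, so the values describe the difference between the groups and no test was made.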
